A study of Caenorhabditis elegans with 4 samples.

Results

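Transcripts of 10 Caenorhabditis elegans genes listed for phosphatidylcholine synthesis were compared between wild-type animals and animals that carry a mutant fatty acid synthase gene. The genes were chosen by name, as enzymes of the methylation and choline routes, and each matched 1 of the 13758 rows of the deposited table. The wild type was strain N2 (Bristol), and the mutant was strain GG14 with the genotype fasn-1(g14). Each group had 2 libraries of whole early adults, numbered 3 and 4, which the design text calls biological replicates. Per the labels' protocols, both groups passed through the same early-life starvation: hatchlings were held without food for 8 days at 20 °C, and 750 survivors grew on HT115 bacteria with an empty vector for about 68 hours. The comparison therefore sets previously starved mutants against previously starved wild type, and no group was fed throughout. The RNA came from all tissues of many animals together.

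Phosphatidylcholine is the main phospholipid of most animal membranes and the surface lipid of yolk particles and fat droplets. Nematodes make it from ethanolamine or from choline. In the methylation route, PMT-1 adds the first methyl group to phosphoethanolamine and PMT-2 adds the later ones, giving phosphocholine, with S-adenosylmethionine from SAMS-1 as the methyl donor. In the choline route, choline kinases make phosphocholine directly. Both routes then share the later steps, in which a cytidylyl transferase makes CDP-choline and a phosphotransferase joins it to diacylglycerol. In worms, low phosphatidylcholine is known to activate the lipid regulator SBP-1, the homologue of SREBP.

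The libraries held 13960509 to 15889424 reads, and 1 read was worth between 0.0628 and 0.0676 CPM (reads scaled per library). The mutated gene, fasn-1, had 369 and 410 CPM in the wild-type libraries, against 353 and 285 CPM in the mutant ones, and its transcript level is no check of the allele. Of 12977 genes tested, 572 rose and 1386 fell in the mutant (limma, adjusted p below 0.05), so 29.2% of the calls were rises, against 43.3% after quantile normalization. The median change of all tested genes was 0.00 on the log2 scale. Markers of 7 tissues were all found with reads in every library where they were in the table. In bulk RNA of whole animals, fewer cells of a type and less RNA per cell cannot be told apart.

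Among the 10 enzyme genes, 4 rose in the mutant, 0 fell and 6 did not pass the test. The genes that rose were both methyltransferases, pmt-1 and pmt-2, and the cytidylyl transferases among the 10, pcyt-1 and pcyt-2.1. The mammalian namesake of pcyt-2.1 acts on phosphoethanolamine, so the place of pcyt-2.1 in phosphatidylcholine synthesis rests on the list alone. Across all tested genes 4.41% were called higher and 10.7% lower. By edgeR's quasi-likelihood test and by DESeq2 on reads recovered from the CPM the counts were also 4 and 0. Of all genes, 3.38% and 7.04% were called higher and lower by edgeR, and 3.91% and 8.15% by DESeq2. At an unadjusted p under 0.05 (limma) 5 of the 10 genes were higher and 2 lower. The share of all genes at that unadjusted level was not counted, here or for the lists below, so such counts have no background. The median change of the 10 genes was 0.27 on the log2 scale. In 7 genes both mutant libraries lay above both wild-type libraries and in 2 both lay below, whereas 31.2% and 32.9% of all tested genes did so, 64.0% in all. A fit with a library left out holds 1 library in that group, whose spread was assumed to be like that of the other group. Each called rise was lost when either wild-type library was left out, with 0 of 10 then past the threshold. Of all tested genes, 1.16% were then called higher and 3.43% lower without wild type library 3, and 1.17% and 1.38% without library 4. With mutant library 3 left out 5 of the 10 rose and 1 fell, where 18.1% of all genes were called higher and 25.2% lower. With mutant library 4 left out 4 rose and 2 fell, where 7.68% and 13.96% of all genes did.

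**Figure D1:**
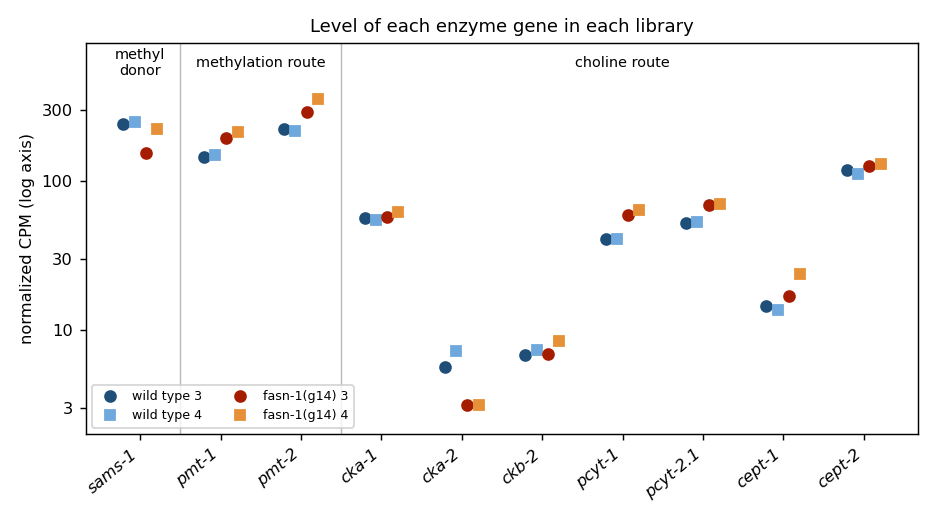
Normalized CPM (log axis) of the 10 enzyme genes in each of the 4 libraries, with wild type in blue, the mutant in red and orange, and circles and squares for libraries 3 and 4. The mutant points of pmt-1, pmt-2, pcyt-1 and pcyt-2.1 lie above the wild-type points, those of sams-1 and cka-2 lie below, and those of cka-1 and cept-2 lie close to them.

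Levels between genes were compared per kilobase of annotated exon. In wild type pmt-2 was the most abundant of the 10, at 140 ± 4.35 CPM per kb (SD, n = 2, as for all levels here). It was followed by sams-1 at 109 ± 2.25 CPM per kb and pmt-1 at 78.4 ± 2.44 CPM per kb. The middle of the order held cept-2, pcyt-2.1, cka-1 and pcyt-1, at 49.6, 38.4, 32.4 and 28.9 CPM per kb. At the low end were cept-1, ckb-2 and cka-2, at 9.51, 5.85 and 2.24 CPM per kb. In the mutant pmt-2 stood at 206 ± 28.7, pmt-1 at 109 ± 7.64 and sams-1 at 83.2 ± 21.6 CPM per kb, so that pmt-1 and sams-1 had traded places in the order, as had pcyt-1 and cka-1. In each group the libraries of genes next to each other in this order overlapped in 0 of 9 pairs. Averaged over the 4 libraries, pmt-2 lay at the 95.5th percentile of the tested genes by level per kb and cka-2 at the 13.5th. Methyltransferase transcripts thus stood well above those of the choline kinases in every library.

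The gene pmt-1 (ZK622.3, WBGene00022781) lies on chromosome II, 5278090 to 5282523, minus strand, in WBcel235 coordinates. It encodes the phosphoethanolamine methyltransferase that opens the methylation route. It stood at 144 and 151 CPM in wild type libraries 3 and 4 and at 194 and 215 CPM in the mutant libraries. Both mutant libraries were above both wild-type libraries, and the gap between the groups was larger than the spread within either. The mean rose 1.39-fold, with a log2 change of 0.47 (SE 0.08, 95% interval 0.28 to 0.66; limma, adjusted p = 0.0160). The gene pmt-2 (F54D11.1, WBGene00018811; chromosome V, 4628580 to 4635263, plus strand) encodes the enzyme of the later methylations. It stood at 225 and 215 CPM in wild type, against 293 and 357 CPM in the mutant. The mutant libraries were again the higher ones, and they differed from each other by more than the wild-type libraries did. Its mean rose 1.48-fold, with a log2 change of 0.55 (SE 0.10, 95% interval 0.31 to 0.79; limma, adjusted p = 0.0184). The ratio of pmt-2 to pmt-1 per kb was 1.86 and 1.71 in wild type and 1.80 and 1.98 in the mutant, so the groups overlapped in the balance between the methyltransferases. Without wild type library 3 the changes were 0.44 for pmt-1 and 0.58 for pmt-2 (limma, adjusted p = 0.0994 and 0.0534), and without wild type library 4 they were 0.50 and 0.52 (0.0855 and 0.1003). A fit with no mean-variance trend gave limma adjusted p = 0.0836 for pmt-1 and 0.0908 for pmt-2; over all alternatives the range was 1.01e-07 to 0.0994 and 2.24e-11 to 0.1003.

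The methyl donor gene sams-1 (C49F5.1, WBGene00008205; chromosome X, 11965962 to 11969893, plus strand) encodes an S-adenosylmethionine synthetase. Its level was 243 and 250.4 CPM in wild type and 153 and 222 CPM in the mutant. Both mutant libraries were below both wild-type libraries, but mutant library 4 lay close to the wild-type values and library 3 far below them. Its log2 change was -0.42 (SE 0.15, 95% interval -0.78 to -0.06), which was not past the threshold (limma, adjusted p = 0.108). The change of sams-1 was -0.68 with mutant library 4 left out and -0.15 with mutant library 3 left out. Each of these fits rests on 1 mutant library and holds no spread of the mutant. With all 4 libraries, edgeR and DESeq2 gave adjusted p = 0.1455 and 0.1057, and limma with a replicate block gave 0.00507. The other synthetase genes, sams-3, sams-4 and sams-5, share sequence with sams-1, so reads could be split among them. Their sum was 281 and 273 CPM in wild type and 292 and 295 CPM in the mutant. All 4 synthetase genes together came to 525 and 523 CPM in wild type and to 445 and 517 CPM in the mutant. Of this sum sams-1 took 46.4% and 47.8% in the wild-type libraries and 34.4% and 43.0% in mutant libraries 3 and 4.

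Relative to the methyltransferases, sams-1 stood lower in both mutant libraries. The ratio of sams-1 to pmt-1 per kb was 1.41 and 1.39 in wild type and 0.657 and 0.862 in the mutant. The ratio of sams-1 to pmt-2 was 0.755 and 0.812 in wild type and 0.365 and 0.435 in the mutant. For both ratios the groups did not overlap, and an exact permutation test of 2 against 2 libraries cannot give a two-sided p below 0.333. These ratios combine genes whose own values are given above and are not separate measurements.

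**Figure D2:**
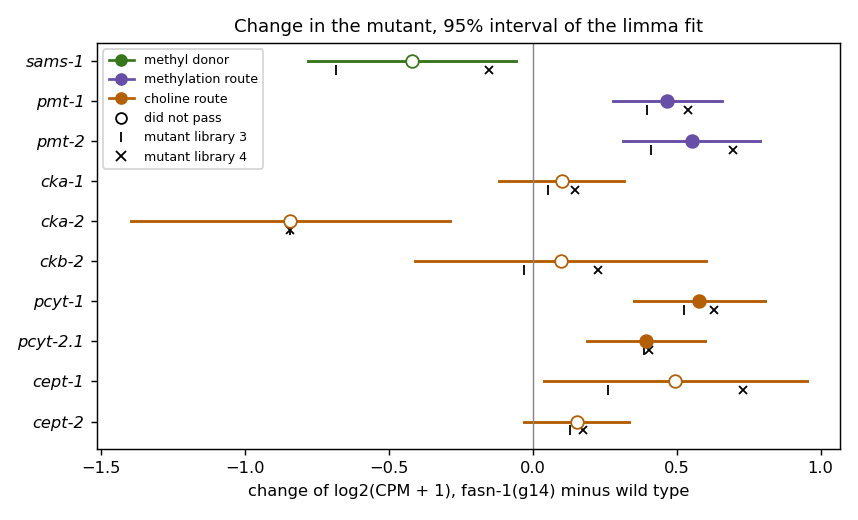
Change of log2(CPM + 1), mutant minus wild type, for each of the 10 genes, with the 95% interval of the limma fit as a bar and a filled circle where the gene passed the test. The small marks under each circle are mutant library 3 (bar) and library 4 (cross) against the wild-type mean; they lie far apart for sams-1 (-0.68 and -0.15) and cept-1 (0.26 and 0.73) and together for cka-2 and pcyt-2.1.

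In the choline route the first step is the phosphorylation of choline, and none of its 3 genes listed here passed the test. The most abundant kinase gene, cka-1 (C28D4.2, WBGene00000509; chromosome IV, 9731737 to 9737621, minus strand), stood at 56.0 and 55.1 CPM in wild type, against 57.7 and 61.6 CPM in the mutant. Its log2 change was 0.10 (SE 0.09, 95% interval -0.12 to 0.32; limma, adjusted p = 0.4904), which leaves room for a difference of either sign within that interval. The gene ckb-2 (B0285.9, WBGene00000512; chromosome III, 4367949 to 4370160, plus strand) stood at 6.72 and 7.29 CPM in wild type, against 6.83 and 8.35 CPM in the mutant. Its groups overlapped, and the log2 change was 0.10 (SE 0.22, 95% interval -0.41 to 0.60; limma, adjusted p = 0.792). It sits between ckb-1 and ckb-3, at gaps of 479 and 724 bases on chromosome III, and ckb-1 stood at 4.46 and 5.60 CPM in wild type, against 2.91 and 4.08 CPM in the mutant.

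The remaining kinase gene, cka-2 (C52B9.1, WBGene00000510; chromosome X, 4286124 to 4291496, plus strand), was the lowest of the 10 genes and the only one of the 3 kinase genes with both mutant libraries below both wild-type libraries. It had 5.65 and 7.15 CPM in wild type, from 90 and 106 reads, and 3.11 CPM in each mutant library, from 46 and 48 reads. The exact Poisson 95% intervals, which cover counting error only, were 4.55 to 6.95 and 5.85 to 8.65 CPM in wild type and 2.28 to 4.15 and 2.29 to 4.12 CPM in the mutant. The mutant mean was 0.486 times that of wild type, and the log2 change of -0.84 (SE 0.24, 95% interval -1.40 to -0.29) narrowly missed the threshold (limma, adjusted p = 0.0530). With a pseudocount of 5 CPM cka-2 passed at -0.49 (limma, adjusted p = 0.0370), while edgeR and DESeq2 gave adjusted p = 0.0634 and 0.110. Its change was -0.84 without mutant library 3 and without mutant library 4, fits that each rest on 1 mutant library. It was -0.99 without wild type library 3 and -0.70 without wild type library 4, fits that each rest on 1 wild-type library. After quantile normalization it was -0.50 (limma, adjusted p = 0.158). The gene shares 39 exon bases with paf-2 on the other strand, whose level was 6.97 and 9.38 CPM in wild type and 6.35 and 5.50 CPM in the mutant. The library kit keeps no strand, and reads in that stretch cannot be assigned to 1 of the genes. Summed over the 6 genes of the choline kinase family in the table, the level was 92.9 and 96.7 CPM in wild type and 98.3 and 104 CPM in the mutant.

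The cytidylyl transferases make the CDP-linked head group. In mammals the step on phosphocholine is known as the one that limits the rate of phosphatidylcholine synthesis. Both cytidylyl transferase genes listed here rose. The gene pcyt-1 (F08C6.2, WBGene00017241; chromosome X, 7572357 to 7581055, plus strand) stood at 40.7 CPM in each wild-type library and at 59.1 and 63.5 CPM in the mutant libraries. The wild-type libraries were nearly the same, and both mutant libraries were well above them. Its mean rose 1.51-fold, the highest fold of the 10 genes, with a log2 change of 0.58 (SE 0.10, 95% interval 0.35 to 0.81; limma, adjusted p = 0.0152). The gene pcyt-2.1 (Y37E3.11, WBGene00021352; chromosome I, 2078955 to 2085680, plus strand) carries the name of the mammalian enzyme PCYT2, which acts on phosphoethanolamine. It stood at 52.6 and 53.3 CPM in wild type, against 69.5 and 70.3 CPM in the mutant. Libraries of each group lay close together and the groups were apart, with a 1.32-fold rise and a log2 change of 0.39 (SE 0.09, 95% interval 0.19 to 0.60; limma, adjusted p = 0.0294). The pcyt-1 gene passed in all alternatives except the fit with no trend (adjusted p = 0.0577) and those without wild type library 3 (change 0.58, adjusted p = 0.0714) or 4 (0.58, adjusted p = 0.0942), within a range of 4.38e-06 to 0.0942. Beside the same 3, where its limma adjusted p was 0.0922, 0.194 and 0.217, pcyt-2.1 also missed when the columns were rescaled to 1 total (change 0.30, adjusted p = 0.0517), and its range began at 0.00103.

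The pcyt-2.1 gene shares 76 exon bases with iglr-3 on the other strand. That neighbour fell, from 10.7 and 13.1 CPM to 6.22 and 3.56 CPM, with a log2 change of -1.16 (SE 0.27; limma, adjusted p = 0.0333), so it moved the opposite way. The ratio of pcyt-1 to pcyt-2.1 per kb was 0.757 and 0.747 in wild type and 0.832 and 0.883 in the mutant. A further family gene, pcyt-2.2, had 3.08 and 4.25 CPM in wild type, against 4.26 and 3.69 CPM in the mutant, far below the other cytidylyl transferase genes.

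The phosphotransferases that complete phosphatidylcholine did not pass the test. The more abundant gene, cept-2 (Y49A3A.1, WBGene00013024; chromosome V, 14347766 to 14351482, plus strand), stood at 118 and 112 CPM in wild type, against 126 and 130.2 CPM in the mutant. Its log2 change was 0.15 (SE 0.08, 95% interval -0.03 to 0.33; limma, adjusted p = 0.217). The gene cept-1 (F22E10.5, WBGene00009057; chromosome X, 12762078 to 12765898, plus strand) stood at 14.5 and 13.5 CPM in wild type, against 16.96 and 23.9 CPM in the mutant. Both mutant libraries were above wild type, but they were far from each other. Its log2 change was 0.50 (SE 0.20, 95% interval 0.04 to 0.95), which was not past the threshold (limma, adjusted p = 0.126). The change of cept-1 was 0.73 without mutant library 3 and 0.26 without mutant library 4, fits that each rest on 1 mutant library. By edgeR and DESeq2 its adjusted p was 0.128 and 0.180. Per kb, cept-2 exceeded cept-1 5.16 and 5.27 times in the wild-type libraries and 4.71 and 3.45 times in the mutant libraries.

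**Figure D3:**
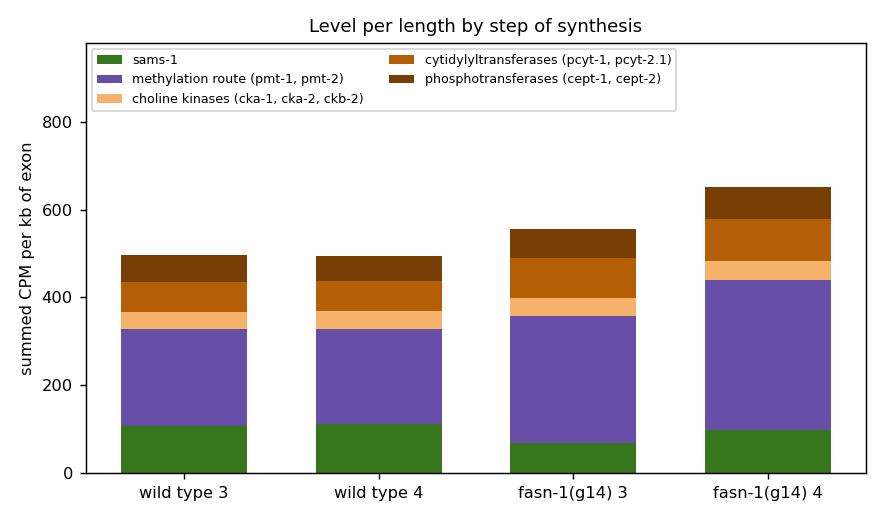
Summed CPM per kb of exon in each library, stacked by step: sams-1, the methyltransferases, the choline kinases, the cytidylyl transferases and the phosphotransferases. The total is 495 and 493 in wild type and 556 and 651 in the mutant; the methyltransferase band is the widest in each library, and the sams-1 band is narrower in the mutant.

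By step, the methyltransferases summed to 218 ± 1.90 CPM per kb in wild type and 315 ± 36.4 CPM per kb in the mutant, 1.44-fold higher. The cytidylyl transferases summed to 67.3 ± 0.342 and 94.2 ± 2.67 CPM per kb, 1.40-fold higher in the mutant. Their sum includes pcyt-2.1, whose mammalian namesake acts on phosphoethanolamine. The phosphotransferases gave 59.1 ± 2.36 and 69.0 ± 4.62 CPM per kb, and the choline kinases 40.4 ± 0.344 and 42.2 ± 2.52 CPM per kb. In each of the first 3 of these steps the lowest mutant library was above the highest wild-type library. Of all tested genes 31.2% showed that arrangement, and neither phosphotransferase gene passed the test. For the choline kinases mutant library 3, at 40.4, lay within the wild-type range of 40.2 to 40.7. Within the sum of the 10 genes, pmt-2 took 28.8% and 27.7% in wild type and 33.5% and 34.8% in the mutant. The share of sams-1 was 21.8% and 22.5% in wild type and 12.2% and 15.1% in the mutant. No sum or share was tested.

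Genes whose profile over the 4 libraries was nearest to that of 3 enzymes were listed as a description, by Euclidean distance of centred log2(CPM + 1) among 4532 named genes with a mean of at least 20 CPM. The nearest to pmt-1 were cpl-1, mdt-26 and ilys-5, at distances of 0.04, 0.06 and 0.07. The nearest to pcyt-1 were faah-3, hpo-8 and hgo-1, each at 0.06. The nearest to sams-1 were ugt-12, cest-2.2 and gyg-1, at 0.13, 0.20 and 0.24. For example ugt-12 stood at 35.4 and 35.3 CPM in wild type, against 24.1 and 32.9 CPM in the mutant, the same arrangement of a low mutant library 3 that sams-1 showed. The distance takes in the difference between the groups as well as that between libraries of a group, and the parts were not separated.

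Lists of genes around the pathway were counted beside the 10 enzymes. Of 93 genes in 8 lists, 86 were in the table and 84 were tested, with 7 rises, 3 falls, 74 genes not called and a median log2 change of 0.10. Over all genes tested 4.41% rose and 10.7% fell. Without wild type library 3 there were 2 rises and 0 falls, without wild type library 4 there were 0 and 0, and without mutant libraries 3 and 4 in turn 29 rose and 12 fell, and 12 rose and 8 fell. Counts in these lists without mutant library 3 stand beside the 18.1% and 25.2% of all genes called higher and lower in that fit, and those without mutant library 4 beside 7.68% and 13.96%. The edgeR test gave 4 rises and 1 fall, and DESeq2 gave 6 and 1. These lists were not compared with the enzymes by a test.

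In the methionine cycle and one-carbon list 1 of 16 genes passed. The transsulfuration gene cbs-1, for cystathionine beta-synthase, fell from 38.8 and 46.5 CPM to 31.4 and 29.1 CPM (log2 change -0.48, SE 0.13; limma, adjusted p = 0.0472). Its limma adjusted p was 0.101 without wild type library 3 and 0.443 without wild type library 4, and edgeR and DESeq2 gave 0.0581 and 0.0640. Without mutant library 3, 4 genes of the list rose and 4 fell, and without mutant library 4, 0 rose and 4 fell. The genes that remake methionine had metr-1, the vitamin B12-dependent methionine synthase, at 266 and 245 CPM in wild type and 293 and 315 CPM in the mutant. For ahcy-1, which clears S-adenosylhomocysteine after each methylation, the levels were 1048 and 961 CPM in wild type and 820 and 968 CPM in the mutant. The list median was 0.00 on the log2 scale.

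Among other genes of the choline and ethanolamine branch, ckc-1 and ept-1 rose and 6 of 8 did not pass. The kinase family gene ckc-1 stood at 13.8 and 15.6 CPM in wild type, against 22.2 and 23.2 CPM in the mutant (log2 change 0.60, SE 0.15; limma, adjusted p = 0.0409). The gene ept-1, for the phosphotransferase that makes phosphatidylethanolamine, went from 79.9 and 78.5 CPM to 97.2 and 107 CPM (log2 change 0.36, SE 0.09; adjusted p = 0.0351). By edgeR ckc-1 missed at an adjusted p of 0.0509. Neither gene passed without wild type library 3 (limma, adjusted p = 0.274 and 0.184) or without wild type library 4 (0.185 and 0.268). The list median was 0.00. In the list of choline uptake and use the median log2 change was -0.05. At an unadjusted limma p under 0.05, 2 of the 11 genes were higher and 4 lower. After adjustment 1 of the 11 passed. This was cho-1, the choline transporter of cholinergic neurons, which fell from 4.08 and 4.38 CPM to 1.28 and 1.23 CPM (log2 change -1.21, SE 0.24; limma, adjusted p = 0.0215; 0.109 and 0.175 without wild type libraries 3 and 4). Beside it, 5 of 8 neuron markers fell, with a median log2 change of -1.18 and a summed level of 470.1 and 497 CPM in wild type against 351 and 306 CPM in the mutant; the part of neurons in the cho-1 result was not tested.

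**Figure D4:**
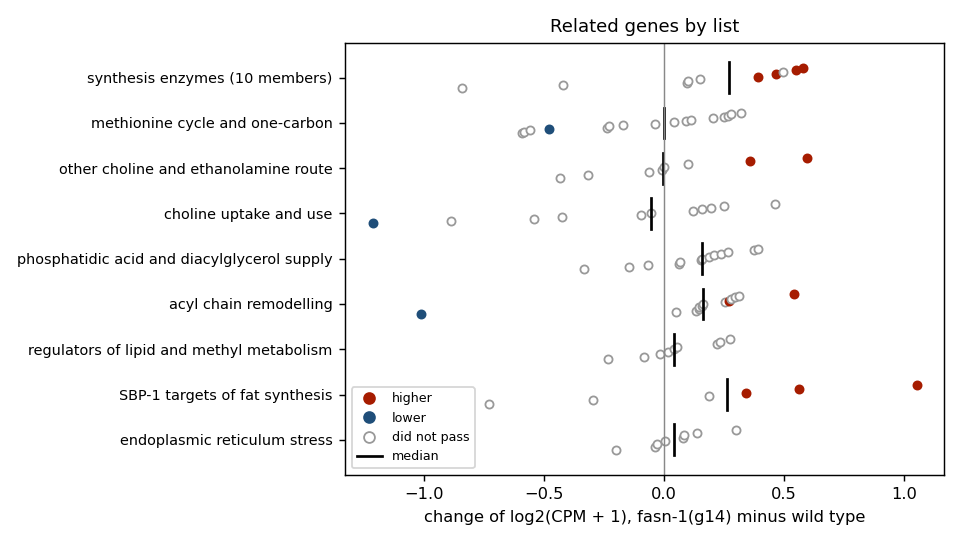
Change of log2(CPM + 1), mutant minus wild type, for each tested gene of the 10 enzymes and of 8 related lists, with the list median as a black line. Filled red and blue points passed the test as higher and lower; the 10 enzymes have 4 red points and a median of 0.27, and most points of the other lists are open.

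The supply and remodelling lists had few calls. The list around phosphatidic acid and diacylglycerol holds genes that make or supply these lipids and some that use them (cdgs-1, pisy-1, crls-1 and dgat-2). Of its 13 genes 0 passed by limma, edgeR or DESeq2. At an unadjusted limma p under 0.05, 3 of the 13 genes were higher and 0 lower, and the median change of the 13 genes was 0.16. Without mutant library 3, 7 of them rose and 1 fell. The glycerol phosphate dehydrogenase gene gpdh-2 had 127 and 128 CPM in wild type and 130 and 139 CPM in the mutant. The lipin gene lpin-1, whose product makes diacylglycerol, stood at 168 and 171 CPM in wild type, against 189 and 198 CPM in the mutant. In acyl chain remodelling 2 rose and 1 fell of 13 tested, with a median of 0.16. The phospholipase A2 genes ipla-1 and ipla-2 rose, with log2 changes of 0.27 and 0.54 (SE 0.07 and 0.10; limma, adjusted p = 0.0477 and 0.0213), ipla-2 from 31.4 and 32.6 CPM to 47.8 and 46.5 CPM. The acyltransferase gene mboa-1, whose part in phospholipid remodelling was not shown here, fell from 4.52 and 5.46 CPM to 2.43 and 1.55 CPM (limma, adjusted p = 0.0433). None of these 3 passed without either wild-type library, where their limma adjusted p lay between 0.123 and 0.411. Only ipla-2 of the 3 also passed by edgeR and DESeq2, which gave adjusted p = 0.0577 and 0.0594 for ipla-1 and 0.0604 and 0.0861 for mboa-1. Without mutant library 3, 8 remodelling genes rose and 1 fell, and without mutant library 4, 4 rose and 1 fell.

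In the list of regulators 0 of 9 passed by limma, edgeR or DESeq2, and 0 had an unadjusted limma p under 0.05, while 1 rose without mutant library 3 and 1 fell without mutant library 4. The SREBP gene sbp-1 stood at 30.7 and 33.7 CPM in wild type, against 35.3 and 43.3 CPM in the mutant (log2 change 0.28, SE 0.13; limma, adjusted p = 0.199). Its coactivator gene mdt-15 was at 199 and 208 CPM in wild type, against 209 and 203 CPM in the mutant. The nuclear receptor gene nhr-49 had 132 and 133 CPM in wild type and 136 and 139 CPM in the mutant. Of 6 SBP-1 targets of fat synthesis, a list that includes the mutated gene fasn-1, 3 rose, with a median of 0.27. At an unadjusted limma p under 0.05, 4 of the 6 were higher and 2 lower (fat-5 and fasn-1). The desaturase gene fat-7 stood at 9.05 and 5.80 CPM in wild type, against 13.5 and 19.4 CPM in the mutant (log2 change 1.06, SE 0.26; limma, adjusted p = 0.0385), and the elongase gene elo-2 at 90.9 and 80.1 CPM and at 111 and 144 CPM (0.56, SE 0.13; adjusted p = 0.0321). The third was pod-2, for acetyl-CoA carboxylase (0.34, SE 0.07; adjusted p = 0.0262). In contrast fat-5, a further desaturase, was at 33.99 and 42.8 CPM in wild type, against 30.5 and 16.7 CPM in the mutant (adjusted p = 0.0962). Without wild type library 4 none of the 3 passed (limma, adjusted p = 0.235, 0.167 and 0.255), and without wild type library 3 fat-7 and elo-2 passed (0.0436 and 0.0495) and pod-2 did not (0.242). By edgeR fat-7 missed at an adjusted p of 0.0506. Reads of fat-7 and its close copy fat-6 may be split between them. Of 8 genes of the endoplasmic reticulum stress response, 0 passed by limma, edgeR or DESeq2 (1 higher at an unadjusted limma p under 0.05; 1 rose and 1 fell without mutant library 3, and 2 rose without mutant library 4). Its most abundant genes, crt-1 (calreticulin) and hsp-3 (a BiP chaperone), had log2 changes of -0.20 and -0.03 (SE 0.10 and 0.08), and hsp-4, the chaperone gene used as its reporter in worms, was at 337 and 333 CPM in wild type, against 345 and 367 CPM in the mutant.

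Tissue markers were counted in the same fit. Of 8 intestine markers 3 rose, ges-1, vha-6 and pho-1, by 0.59, 0.57 and 0.83 on the log2 scale (limma, adjusted p = 0.0282, 0.0132 and 0.0110), and 5 did not pass. The median of the list was 0.36, beside 0.27 for the 10 enzymes, and its summed level was 775 and 793 CPM in wild type and 956 and 1102 CPM in the mutant. Without wild type libraries 3 and 4 in turn, 2 and 0 intestine markers rose. Markers of oocytes and germline had 0 of 8 past the threshold by limma, edgeR or DESeq2, with 0 at an unadjusted p under 0.05, and all 8 rose without mutant library 3, the fit in which 18.1% of all genes were called higher. Their median was 0.22, with a summed level of 5354 and 5059 CPM in wild type against 5445 and 6818 CPM in the mutant. Of 8 pharynx markers 6 fell, with a summed level of 1090.02 and 1171 CPM in wild type and 284 and 129 CPM in the mutant. Sperm markers were in the table for 7 of 8 genes, with a summed 2.95 and 5.40 CPM in wild type and 23.04 and 31.7 CPM in the mutant. Of these, 6 were tested and all 6 rose. Each of the 6 was below 1 CPM in at least 1 wild-type library and met the filter only through its mutant libraries. The filter thus favoured rises, and their count is a description only. Wild-type values of these 6 rest on 1 to 21 reads per library. Of 7 epidermis markers 1 rose and 2 fell, and of 8 body wall muscle markers 1 rose and 4 fell. Without wild type library 4, 3 neuron markers and 0 epidermis markers fell and 3 sperm markers rose; without wild type library 3, 3 sperm markers rose. The muscle marker that rose was lost without wild type library 3 or 4, and 3 epidermis markers fell without mutant library 3 or 4. By edgeR the calls of dpy-7, phat-2 and gsp-3, a marker each of epidermis, pharynx and sperm, were lost (adjusted p = 0.0503, 0.0624 and 0.0504). None of the markers in the table was at 0 reads in any library, and the part of tissue make-up in the changes of the enzymes was not tested.

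**Figure D5:**
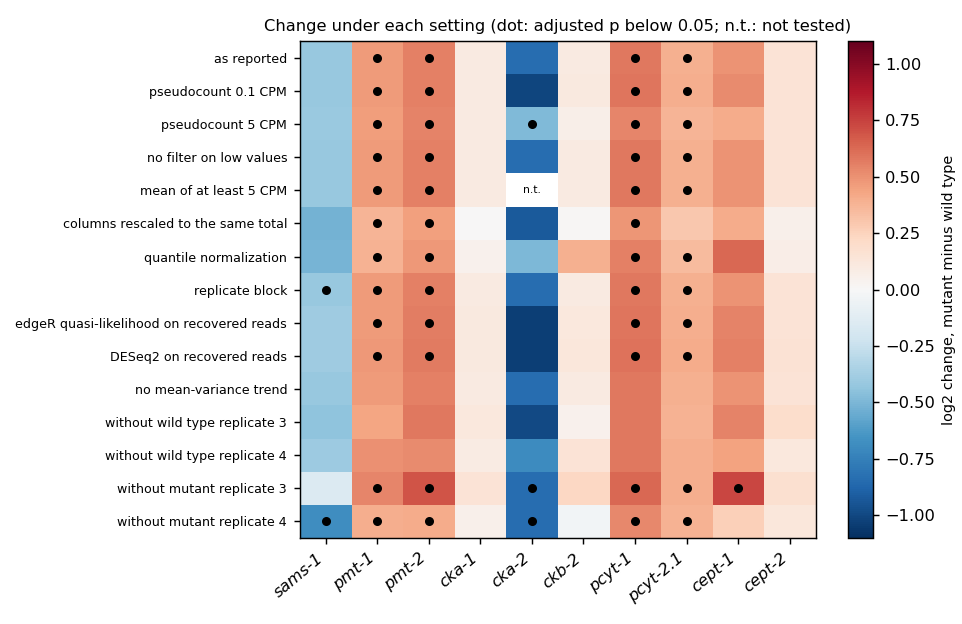
Log2 change of each enzyme gene, mutant minus wild type, as reported and under 14 alternative settings, with blue for lower and red for higher and a dot where the adjusted p was below 0.05. The columns of pmt-1, pmt-2, pcyt-1 and pcyt-2.1 stay red throughout and lose their dots without either wild-type library and with no mean-variance trend. The pcyt-2.1 column also loses its dot with columns rescaled to the same total. The only gene whose sign changes is ckb-2, to -0.03 without mutant replicate 4.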

How the data were processed

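The members, lists and tests were chosen with earlier results of these data known. The deposited signal is normalized CPM per gene. The columns sum to 0.944 and 0.942 times the nominal total of CPM in wild type and to 0.990 and 1.03 times in the mutant. The sums thus separate the groups, and mutant library 4 is above the nominal total, so the scaling was not to the read total alone. With columns rescaled to the same total, the median log2 change was 0.18 for the 10 enzymes and -0.09 for all genes, against 0.27 and 0.00 as reported. The tools were edgeR 3.28.1, HTSeq 0.12.4 and Bowtie2 2.3.3.1, per the submitters' processing notes. Settings, build and annotation used by the authors are not given in the sources read here. A further 8 library columns were not used. All positive values were whole multiples of their column's smallest (100% within 0.001 read), which gave the reads. Rows were named by sequence name from Ensembl release 115 (WBcel235), with 13747 matched to 1 gene, 8 unmatched and 3 ambiguous. The 10 members matched 1 row each, so transcripts of a gene were not told apart. Exon lengths came from the same annotation.

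limma 3.58.1 (R 4.3.3) was fitted to log2(CPM + 1) with a group term and a mean-variance trend, where at least 2 libraries had 1 CPM or more, two-sided, with Benjamini-Hochberg adjustment over all 12977 genes and a threshold of 0.05. Changes on this scale understate those of low genes. Each gene's spread was moderated toward that of genes of similar level (limma's empirical Bayes step). With 2 libraries per group, p-values measure the spread between these libraries, in part borrowed from other genes. The script was tested on simulated data, which says nothing of the spread between these libraries. Alternatives included edgeR 4.0.16 and DESeq2 1.42.0 on the recovered reads. Named genes were the 10 members, fasn-1, up to 4 genes of each list (those past the threshold, or else abundant ones) and the 3 nearest profiles of sams-1, pmt-1 and pcyt-1; genes that overlap members, further family genes and other list genes named beside these were chosen after their values were seen.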

Additional observations from a re-analysis of the deposited data

How the results depend on the processing

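The directions of 9 of the 10 enzyme changes held under all 14 alternatives in which they could be tested. That of ckb-2 reversed without mutant replicate 4 (-0.032, the lowest of its values with 1 library left out, up to 0.23). Several of these alternatives could not change a sign. A changed filter, a fit with no trend and a replicate block keep the change as it was. Leaving out 1 library cannot reverse a gene whose groups do not overlap, and the groups of those 9 genes did not overlap. Leaving out each library in turn gave 0 to 5 enzymes higher and 0 to 2 lower, 0 to 29 related genes higher and 0 to 12 lower, and 151 to 2346 of all genes higher and 179 to 3268 lower; a group left with 1 library was assumed to vary like the other. With no mean-variance trend 0 enzymes rose, related genes gave 0 and 1, and all genes 172 and 545. A pseudocount of 5 CPM gave 1 enzyme lower (cka-2), where 12.2% of all genes were called lower. A pseudocount of 0.1 CPM gave 1 related gene and 889 genes lower. With genes under a mean of 5 CPM removed, 2 related genes rose, 0 fell, and 288 and 509 of all genes passed, with cka-2 untested. With columns rescaled to 1 total 2 related genes and 361 genes rose. The edgeR test on recovered reads gave 4 related genes higher, 1 lower and 913 genes lower, and DESeq2 gave 1 related gene lower. The replicate numbers were not shown to pair the libraries (deviations of same-numbered libraries correlated at -0.21 across genes). With the replicate number as a block, 4 enzymes rose, 1 fell (sams-1, limma adjusted p = 0.00507) and 5 related genes fell. In that fit 4.82% of all genes were called higher and 14.4% lower. The crossed pairing, chosen after seeing the data, gave 2 enzymes lower, 15 related genes higher and 10 lower, and 1197 and 2310 of all genes. The cause of these differences was not tested. Depth limits cka-2 most, at 46 to 106 reads per library.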
